A study of Danio rerio with 6 samples.

Results

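The transcripts described here belong to the red blood cell programme of the zebrafish, taken as 10 gene symbols: the transcription factors *gata1a*, *klf1* and *tal1*, the erythropoietin receptor gene *epor*, the haem synthesis genes *alas2*, *urod* and *fech*, the red cell carbonic anhydrase gene *cahz*, and the membrane genes *slc4a1a* and *epb41b*. A symbol was kept when it matched a single Ensembl gene of the count table, which left 9 of the 10, out of 32520 genes in the table. *slc4a1a* had no single identifier and is given apart. RNA-Seq had been performed on the heart ventricles of wild type zebrafish bred from the AB and TU strains, with 3 old samples (4 years, replicates 1, 3 and 5) and 3 young samples (7 months, replicates 1, 2 and 5). The series describes the samples as individuals, but the methods do not state if ventricles had been pooled, and the SD values and tests measure the spread between these samples. No fish was treated or carried an engineered allele. The libraries had been made from poly(A)-selected RNA, and the samples of each age had been chosen for their RNA integrity.

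Red blood cells of fish keep their nucleus, and blood that stays in the chambers and vessels of a ventricle brings its transcripts into a ventricle library. Gata1 binds DNA together with Tal1 and Lmo2 and switches on the genes of the red cell, among them the globin genes, the haem synthesis genes and the receptor for erythropoietin, the hormone that keeps red cell precursors alive. Haem is made in a chain of enzymes that starts and ends in the mitochondrion. Alas2 carries out the first step in red cells and Alas1 the same step in other tissues, whereas the later enzymes are shared by all cells. Zebrafish mutants of *gata1a*, *alas2*, *urod*, *fech*, *slc4a1a* and *epb41b* were all found as fish with anaemia or with defective red cells.

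Library totals ranged from 17742389 to 22547518 counts. Values are given in CPM, the usual read count unit that corrects for depth, here with TMM factors, and a count of 0 allows up to 3 counts, or 0.124 to 0.161 CPM, by counting error only. Old and young ventricles were compared with edgeR's quasi-likelihood test over the 24835 genes that had been counted at least once, and a gene was called when its Benjamini-Hochberg adjusted p-value was under 0.05. Mitochondrially encoded genes took 11.3 to 13.9% of the counts in old libraries and 14.9 to 17.9% in young libraries.

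All 9 genes had been counted in all 6 libraries. For 7 of them (*gata1a*, *klf1*, *tal1*, *epor*, *alas2*, *cahz* and *epb41b*) every old library lay below every young library, whereas 9.66% of all genes tested had this pattern. With library size alone as the scaling, *epor* overlapped, and 6 of the 9 genes and 5% of all genes tested had it. Of the 9 genes, 1 was called down-regulated in old ventricles, *gata1a*, where the share of all genes tested was 0.338%. An unadjusted p-value under 0.05 with a lower level in old ventricles was found for 7 of the 9 genes and for 6.5% of all genes tested. These shares were larger among the 13262 genes tested with a mean of at least 1 CPM. Of those genes, 1899 were lower without overlap, 1342 were lower at an unadjusted p under 0.05 and 82 were called lower. The log2 fold changes of the 9 genes had a median of -1.35, against 0.02 over all genes tested. *urod* and *fech* made up the remainder, and their old and young values overlapped. In whole ventricles, fewer red cells and less of a transcript per red cell cannot be told apart.

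**Figure D1:**
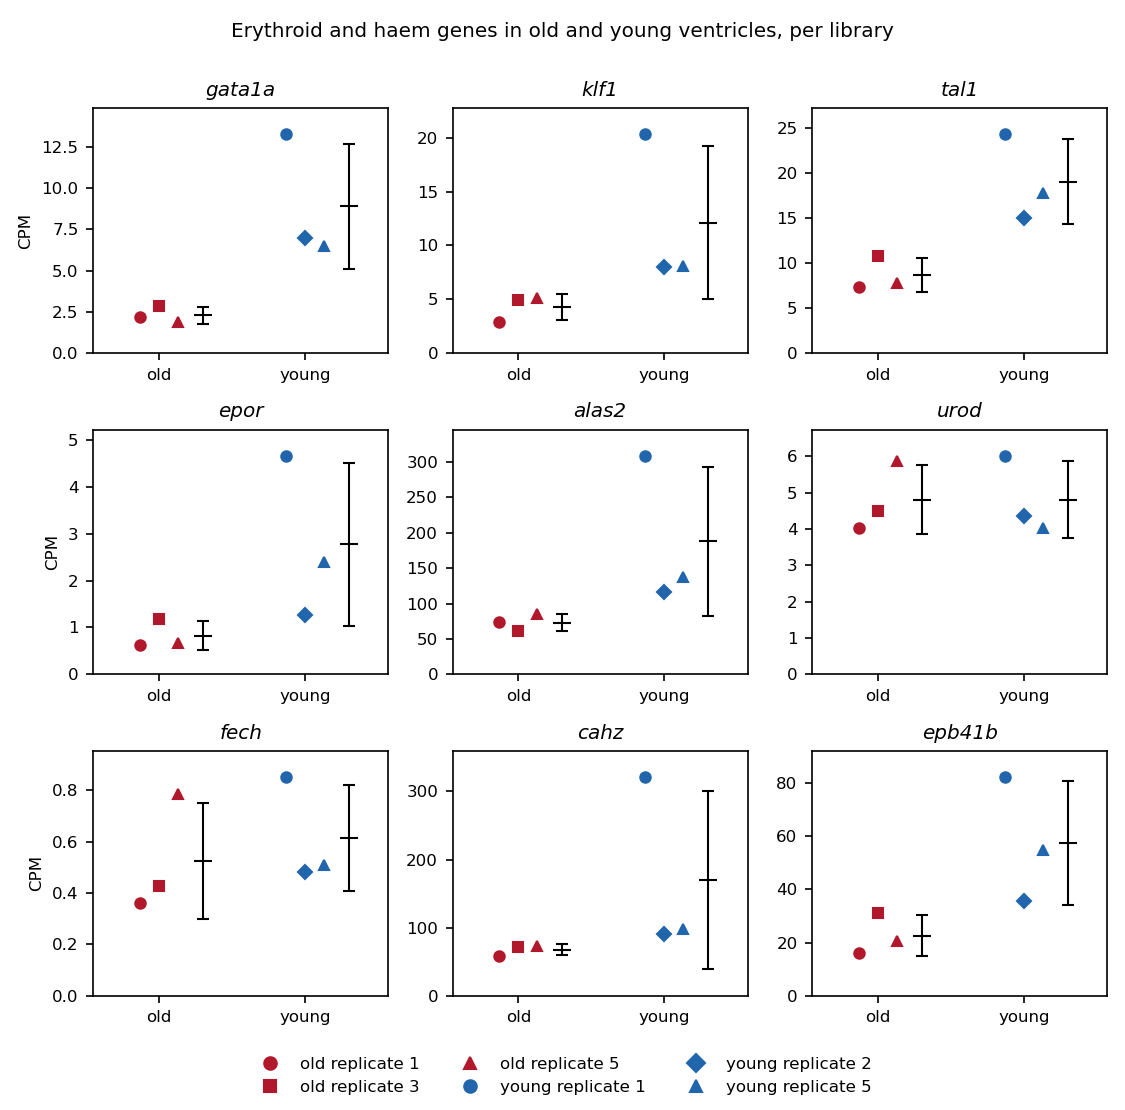
Level in CPM (vertical axes, each starting at 0) of the 9 erythroid and haem genes in the 3 old and 3 young libraries, where symbols mark the replicate and black bars the mean and SD of each group. All old points lie below all young points in 7 of the 9 panels, the exceptions being *urod* and *fech*, and young replicate 1 is the highest young library in 9 of the 9.

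Among the transcription factors, *gata1a* (ENSDARG00000013477), which is required for the red cell lineage, reached 2.18, 2.84 and 1.86 CPM in old replicates 1, 3 and 5, against 13.3, 6.96 and 6.49 CPM in young replicates 1, 2 and 5. These values rest on 45 to 53 counts in an old library and 127 to 265 counts in a young library. The lowest young library was 2.29 times the highest old library, the widest gap of the 9 genes. Levels averaged 2.29 ± 0.499 CPM in old ventricles and 8.90 ± 3.79 CPM in young ventricles (SD, n = 3 each), and the log2 fold change was -1.96 with a standard error of 0.35 (adjusted p = 0.0434, edgeR). The direction was the same in 16 of 16 alternative settings, and the call was kept in 5 of them. The call was lost without old replicate 5 (adjusted p = 0.0690) or young replicate 5 (adjusted p = 0.0595). It was also lost without young replicate 1 (log2 fold change -1.55, adjusted p = 0.124) or young replicate 2 (adjusted p = 0.141). Further losses came with library size alone as the scaling (adjusted p = 0.0629), filterByExpr (0.0678) and at least 10 reads summed over libraries (0.074). The same held with no filter (0.0568), limma-voom (0.0843), bias-adjusted deviances (0.0614) and the replicate block (0.0911).

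*klf1* (ENSDARG00000017400) encodes a zinc finger factor that activates adult globin genes in mammals. It was measured at 2.86, 4.93 and 5.08 CPM in old replicates 1, 3 and 5 and at 20.3, 7.97 and 8.07 CPM in young replicates 1, 2 and 5. The groups did not overlap, and young replicate 1 stood well above the other two young libraries, which were nearly equal. With means of 4.29 ± 1.24 CPM in old and 12.1 ± 7.11 CPM in young ventricles (SD, n = 3 each), the log2 fold change was -1.50 ± 0.41 (SE) and did not pass the threshold (adjusted p = 0.128, edgeR). Without young replicate 1 the log2 fold change was -0.90 (adjusted p = 0.313, edgeR), so the fitted ratio moved 1.52-fold from that with all 6 libraries.

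*tal1* (ENSDARG00000019930), whose product acts earlier in blood and vessel precursors and also in the complex with Gata1, gave 7.39, 10.8 and 7.81 CPM in old replicates 1, 3 and 5 against 24.3, 15.0 and 17.8 CPM in young replicates 1, 2 and 5. Its young libraries were the closest to one another among the 7 genes with no overlap. The means were 8.67 ± 1.87 CPM in old and 19.0 ± 4.75 CPM in young ventricles (SD, n = 3 each), with a log2 fold change of -1.14 ± 0.25 (SE) and an adjusted p of 0.0795 in edgeR. Without young replicate 1 the log2 fold change was -0.92.

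The receptor gene *epor* (ENSDARG00000090834) was near the limit of what this depth resolves, with 14, 22 and 16 counts in old replicates 1, 3 and 5 and 93, 26 and 47 counts in young replicates 1, 2 and 5. In CPM these were 0.634, 1.18 and 0.661 in old ventricles and 4.66, 1.26 and 2.40 in young ventricles. Old replicate 3 and young replicate 2 lay close together, at a ratio of 1.07, and their order turned with library size alone as the scaling (1.24 CPM in old replicate 3 and 1.17 CPM in young replicate 2). Means were 0.824 ± 0.306 CPM in old and 2.77 ± 1.73 CPM in young ventricles (SD, n = 3 each). The log2 fold change of -1.75 had a standard error of 0.54 and did not pass (adjusted p = 0.164, edgeR). It was -1.15 without young replicate 1, so the fitted ratio moved 1.52-fold from that with all 6 libraries.

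Among the haem synthesis genes, *alas2* (ENSDARG00000038643), the gene of the first, erythroid-specific step, was measured at 73.3, 61.4 and 84.8 CPM in old replicates 1, 3 and 5 and at 308, 117 and 138 CPM in young replicates 1, 2 and 5. All old values lay below all young values, and young replicate 1 was 2.42 times the mean of the other young libraries. Means of 73.2 ± 11.7 CPM in old and 188 ± 105 CPM in young ventricles (SD, n = 3 each) gave a log2 fold change of -1.36 ± 0.34 (SE), which did not pass the threshold (adjusted p = 0.106, edgeR). Without young replicate 1 it was -0.79 (adjusted p = 0.194, edgeR).

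*urod* (ENSDARG00000006818) encodes the decarboxylase of a middle step in the cytosol. Its levels were 4.03, 4.50 and 5.87 CPM in old replicates 1, 3 and 5 and 6.01, 4.35 and 4.03 CPM in young replicates 1, 2 and 5. The groups covered almost the same range, and the means were 4.80 ± 0.953 CPM in old and 4.80 ± 1.06 CPM in young ventricles (SD, n = 3 each). The log2 fold change was 0.00 with a standard error of 0.28 (adjusted p = 0.998, edgeR), and its sign turned with the library left out.

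*fech* (ENSDARG00000003462), the gene of the last step, in which iron is inserted to give haem, had only 8, 8 and 19 counts in old replicates 1, 3 and 5 and 17, 10 and 10 counts in young replicates 1, 2 and 5. This corresponds to 0.363, 0.428 and 0.785 CPM in old and 0.851, 0.483 and 0.511 CPM in young ventricles. Old replicate 5 lay above young replicates 2 and 5, so the groups overlapped. The log2 fold change of -0.22 was smaller than its standard error of 0.55 (adjusted p = 0.867, edgeR), the largest standard error of the 9 genes.

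*cahz* (ENSDARG00000011166), the carbonic anhydrase of red cells, which turns carbon dioxide into bicarbonate, had the most even old and the most uneven young libraries. It reached 58.9, 71.7 and 73.1 CPM in old replicates 1, 3 and 5 and 321, 90.7 and 98.8 CPM in young replicates 1, 2 and 5. No old value reached the lowest young value, yet young replicate 1 was 3.39 times the mean of the other young libraries. Means were 67.9 ± 7.86 CPM in old and 170 ± 131 CPM in young ventricles (SD, n = 3 each). The log2 fold change was -1.32 ± 0.44 (SE, adjusted p = 0.190, edgeR). Without young replicate 1 it was -0.48 (adjusted p = 0.355, edgeR), so the fitted ratio moved 1.80-fold from that with all 6 libraries.

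*epb41b* (ENSDARG00000029019), which encodes a protein 4.1 that ties the spectrin skeleton to the red cell membrane, was found at 16.1, 31.2 and 20.5 CPM in old replicates 1, 3 and 5 against 82.1, 35.7 and 54.8 CPM in young replicates 1, 2 and 5. The groups did not overlap, with old replicate 3 and young replicate 2 nearest to one another. Means of 22.6 ± 7.75 CPM in old and 57.6 ± 23.3 CPM in young ventricles (SD, n = 3 each) gave a log2 fold change of -1.35 ± 0.33 (SE, adjusted p = 0.102, edgeR). Without young replicate 1 it was -1.0.

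The anion exchanger gene *slc4a1a*, whose product exchanges bicarbonate for chloride across the red cell membrane, was left out because the name SLC4A1 belongs to a pair of identifiers. One of them had no counts in any library. The other, ENSDARG00000012881, had 45.0, 42.7 and 54.6 CPM in old replicates 1, 3 and 5 and 149, 47.4 and 47.2 CPM in young replicates 1, 2 and 5. Old and young values of this identifier overlapped, and only young replicate 1 stood apart (log2 fold change -0.78 ± 0.41 (SE), adjusted p = 0.42, edgeR).

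From the lowest, the log2 fold changes ran from *gata1a* (-1.96) through *epor* (-1.75), *klf1* (-1.50), *alas2* (-1.36), *epb41b* (-1.35), *cahz* (-1.32) and *tal1* (-1.14) to *fech* (-0.22) and *urod* (0.00). Among the first 7, neighbours in this order lay less than 1 standard error apart. The step to *fech* was wider than the standard error of *tal1* or *fech* alone. Differences in fold change between genes were not tested beyond the ratios given below.

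Young replicate 1 was the highest young library for 9 of the 9 genes, a position it held for 31.7% of all genes tested. It exceeded the mean of the other young libraries 1.43-fold for *urod*, 1.48-fold for *tal1*, 1.71-fold for *fech*, 1.81-fold for *epb41b*, 1.97-fold for *gata1a* and 2.42-fold to 3.39-fold for *alas2*, *klf1*, *epor* and *cahz*. The coefficient of variation was larger in young than in old ventricles for 8 of the 9 genes, with *fech* as the exception, and reached 76.8% for *cahz* in young ventricles. With young replicate 1 left out, 6 of the 9 genes were lower in old ventricles at an unadjusted p under 0.05, against 4.94% of all genes tested, and 0 of the 9 were called by edgeR. The median log2 fold change of the 9 genes without that library was -0.90. With all 6 libraries, limma-voom called 0 of the 9. DESeq2's Wald test on all 6 libraries called 5 of the 9 down-regulated (*gata1a*, adjusted p = 0.000101, *tal1*, 0.00464, *epb41b*, 0.0113, *alas2*, 0.0135, and *klf1*, 0.0236), where it called 1.98% of all genes tested.

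**Figure D2:**
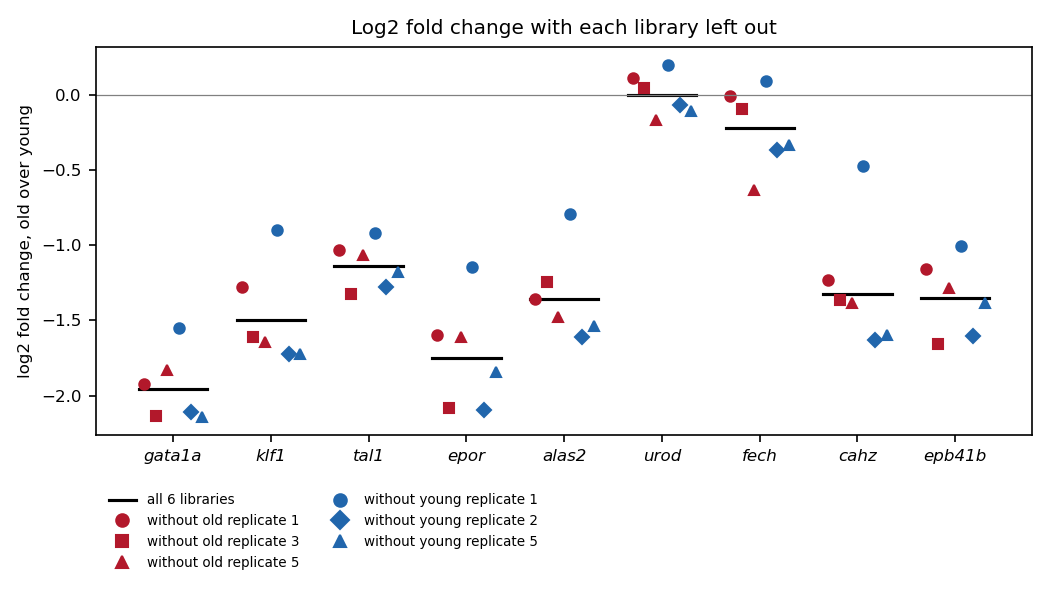
Log2 fold change of the 9 genes, old over young (vertical axis), with all 6 libraries (black lines) and without one library at a time (symbols, red for an old and blue for a young library). Leaving out young replicate 1 gives the value nearest to 0 for *gata1a*, *klf1*, *tal1*, *epor*, *alas2*, *cahz* and *epb41b*, for example -0.48 for *cahz*, and no library turns the sign of these 7 genes.

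To see which cells' genes went with these values, lists of related genes were read in the same fit. Of all 24835 genes tested, 12106 were fitted lower and 12728 higher in old ventricles. Of 20 listed transcription factors and cofactors of the red cell programme, 16 were tested, and 8 were fitted lower and 8 higher in old ventricles. Those lower with no overlap of the groups were 7 in number, the 3 factors above and *lmo2*, *zfpm1*, *gfi1b* and *nfe2*, but *lmo2* and *gfi1b* overlapped with library size alone as the scaling, which left 5. *lmo2*, the bridging partner of Tal1 and Gata1, averaged 8.60 ± 1.59 CPM in old and 15.3 ± 5.20 CPM in young ventricles (SD, n = 3 each, log2 fold change -0.83, adjusted p = 0.192, edgeR). *zfpm1*, a cofactor that binds Gata1, had 20.4 ± 5.32 CPM in old and 40.8 ± 8.38 CPM in young ventricles (SD, n = 3 each, log2 fold change -1.0, adjusted p = 0.104, edgeR). Unlike for *gata1a*, young replicate 1 was the lowest young library for *zfpm1* (31.3 CPM, against 43.6 and 47.4 CPM in young replicates 2 and 5). *nfe2*, a factor of the globin gene control regions in mammals, had a log2 fold change of -1.25 (adjusted p = 0.149, edgeR), and *gfi1b*, a repressor needed for red cells and platelets in mammals, had a log2 fold change of -2.34 from few counts (adjusted p = 0.277, edgeR). The partners of Tal1 that most tissues express did not share this pattern, with log2 fold changes of 0.19 for *tcf3a*, 0.04 for *tcf3b* and 0.13 for *tcf12*, and overlapping groups. Nor was it confined to such partners. Groups also overlapped for *klf3* (log2 fold change 0.42), *klf17* (0.04) and *myb* (0.43), fitted higher, and for *runx1* (-1.31), fitted lower. Of this list, *gata1a* alone was called, and its median log2 fold change was -0.40, or -0.83 with genes at the floor in both groups left out and those at the floor in one group taken at their bound. DESeq2's Wald test called 5 of the list, *gata1a*, *klf1*, *tal1*, *zfpm1* and *nfe2*, of which the first 3 are the factors above. Over all genes tested, 9.66% were lower without overlap, or 5% with library size alone as the scaling. EdgeR called 0.338% of all genes tested as lower and DESeq2 1.98%.

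Erythropoietin signalling had 7 of 12 listed genes tested, of which 6 were fitted lower in old ventricles, against 12106 of 24835 genes tested. Of these 7, 0 were called by edgeR or by DESeq2. An unadjusted p under 0.05 was found for 2, both lower, against 6.5% of all genes tested as lower. These 2 were *epor* and *jak2a*, the kinase bound to the receptor, which averaged 45.6 ± 6.83 CPM in old and 71.6 ± 22.8 CPM in young ventricles (SD, n = 3 each, log2 fold change -0.65, adjusted p = 0.240, edgeR). *epoa*, the gene of the hormone, had 183, 201 and 95.1 CPM in old replicates 1, 3 and 5 and 181, 209 and 228 CPM in young replicates 1, 2 and 5. The groups of *epoa* overlapped (log2 fold change -0.37 ± 0.26 (SE), adjusted p = 0.554, edgeR).

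Of 15 listed genes of the red cell membrane and its skeleton, 11 were tested, and 10 of these were fitted lower in old ventricles. An unadjusted p under 0.05 was found for 7, all lower, against 6.5% of all genes tested as lower. Groups were lower without overlap for 6, or 5 with library size alone as the scaling, against 9.66% and 5% of all genes tested. EdgeR called 0, and DESeq2 called 4 (*epb41b*, *ank1a*, *add2* and *rhd*), against 1.98% of all genes tested as lower. Groups overlapped for *sptb* (log2 fold change -0.56), *tmod4* (-0.99), *rhag* (-0.46), *kel* (-0.33) and *xk* (0.87, from few counts). The median log2 fold change of the list was -0.99. *ank1a*, an ankyrin that anchors spectrin to the membrane, had 6.57, 5.67 and 4.96 CPM in old replicates 1, 3 and 5 against 23.6, 12.7 and 12.6 CPM in young replicates 1, 2 and 5 (log2 fold change -1.51 ± 0.29 (SE), adjusted p = 0.0521, edgeR). *add2*, an adducin of the same skeleton, averaged 7.09 ± 1.55 CPM in old and 18.4 ± 6.55 CPM in young ventricles (SD, n = 3 each, log2 fold change -1.38, adjusted p = 0.0716, edgeR). Among 5 tested genes of red cell enzymes and other red cell proteins, 4 were fitted lower, 3 of them at an unadjusted p under 0.05, and 0 were called by edgeR and 1, *hemgn*, by DESeq2. Groups without overlap were found for 2 of these, *cahz* and *hemgn*. The third, *bpgm*, was high in young replicate 5 alone (216 CPM). Its young replicates 1 and 2 (17.7 and 12.8 CPM) lay below all old values (18.4 to 21.7 CPM). *hemgn*, a nuclear protein of red cell precursors, had 14.2, 17.3 and 20.1 CPM in old replicates 1, 3 and 5 and 87.0, 27.8 and 27.4 CPM in young replicates 1, 2 and 5, with young replicate 1 again apart (log2 fold change -1.46, adjusted p = 0.147, edgeR, and -0.68 without that library).

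**Figure D3:**
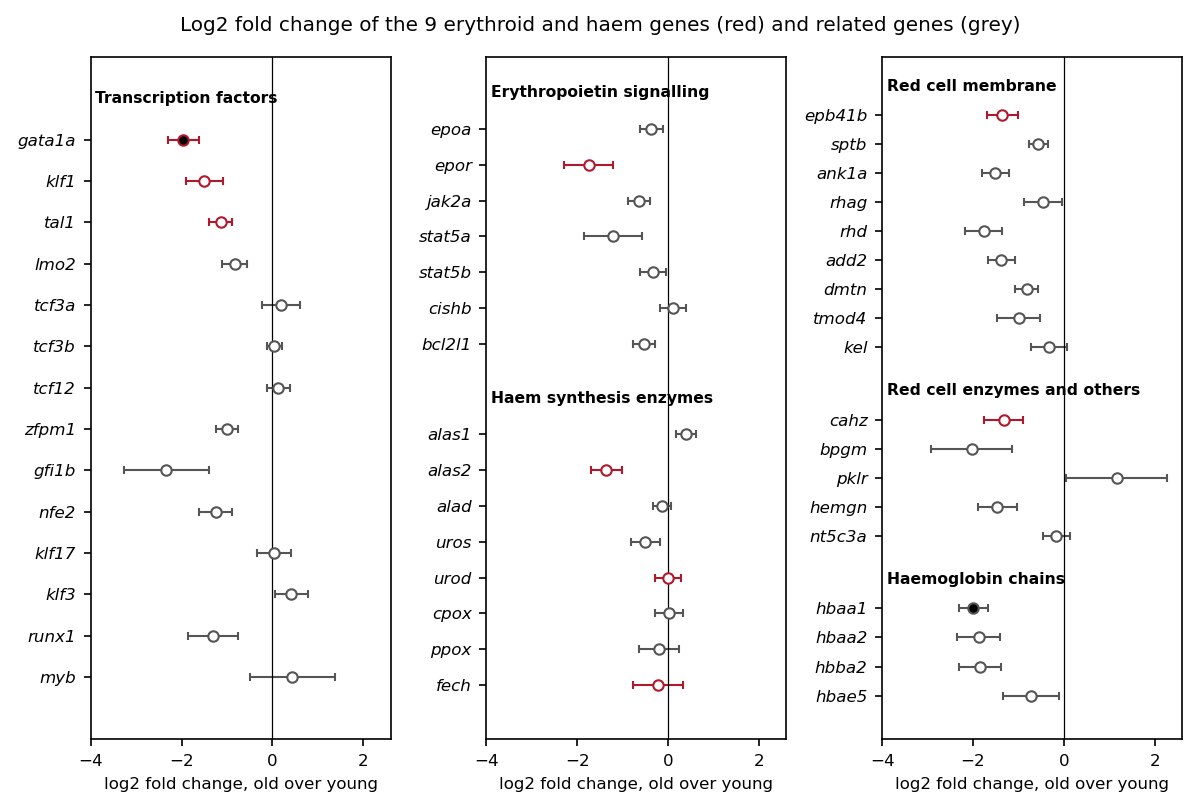
Log2 fold change, old over young (horizontal axes), with its standard error (bars) for the 9 genes (red) and for the other genes of 6 related lists (grey), leaving out those at the floor in a group, where filled points have an adjusted p under 0.05 in edgeR. The red cell membrane genes and the adult haemoglobin genes *hbaa1*, *hbaa2* and *hbba2* lie left of 0 with *gata1a* and *alas2*. The haem synthesis enzymes other than *alas2* lie between -0.50 and 0.39. Haemoglobin identifiers that matched no listed symbol are in none of these lists.

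The haem synthesis list held 8 tested enzymes of 10. Of these, 5 were fitted lower and 3 higher in old ventricles, and 0 were called by edgeR. *alas2* was the only one with an unadjusted p under 0.05, where 6.5% of all genes tested were lower by that rule. It was also the only one called by DESeq2, against 1.98% of all genes tested as lower. The median log2 fold change of these enzymes was -0.17. *alas1*, the counterpart of *alas2* outside red cells, had 1049, 967 and 592 CPM in old replicates 1, 3 and 5 and 529, 699 and 758 CPM in young replicates 1, 2 and 5. Its groups overlapped, with a fitted change in the opposite direction to *alas2* (log2 fold change 0.39 ± 0.23 (SE), adjusted p = 0.469, edgeR). The log2 fold changes of the enzymes between the first and the last step were -0.14 for *alad*, -0.50 for *uros*, 0.00 for *urod*, 0.03 for *cpox* and -0.20 for *ppox*.

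The counts of *alas2* were also set against each other enzyme in the same library, which does not depend on the scaling between libraries. The log2 ratio of *alas2* to *alas1* was -3.84, -3.98 and -2.80 in old replicates 1, 3 and 5 and -0.78, -2.58 and -2.46 in young replicates 1, 2 and 5. It was lower in old ventricles by 1.6 on average, without overlap. With *urod*, the ratio was 4.18, 3.76 and 3.85 in old and 5.68, 4.74 and 5.09 in young ventricles, a mean difference of -1.24. Over the 7 enzymes compared, the mean difference was negative in 7, from -1.6 with *alas1* to -0.78 with *uros*, and the groups did not overlap in 5 (*alas1*, *alad*, *uros*, *urod* and *fech*). For these 5 the two-sided exact permutation p was 0.10, the smallest that 3 against 3 libraries can give, and 0.14 after Benjamini-Hochberg adjustment over the 7. Without young replicate 1, the 7 mean differences were -1.02 to -0.57. All 7 ratios share the counts of *alas2*, so they are not independent. *alas2* also had the lowest log2 fold change of the listed enzymes (-1.36), and it was set against the others with these values in view. The shared negative sign follows from that choice, and the ratios restate the fold changes and are no separate test.

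**Figure D4:**
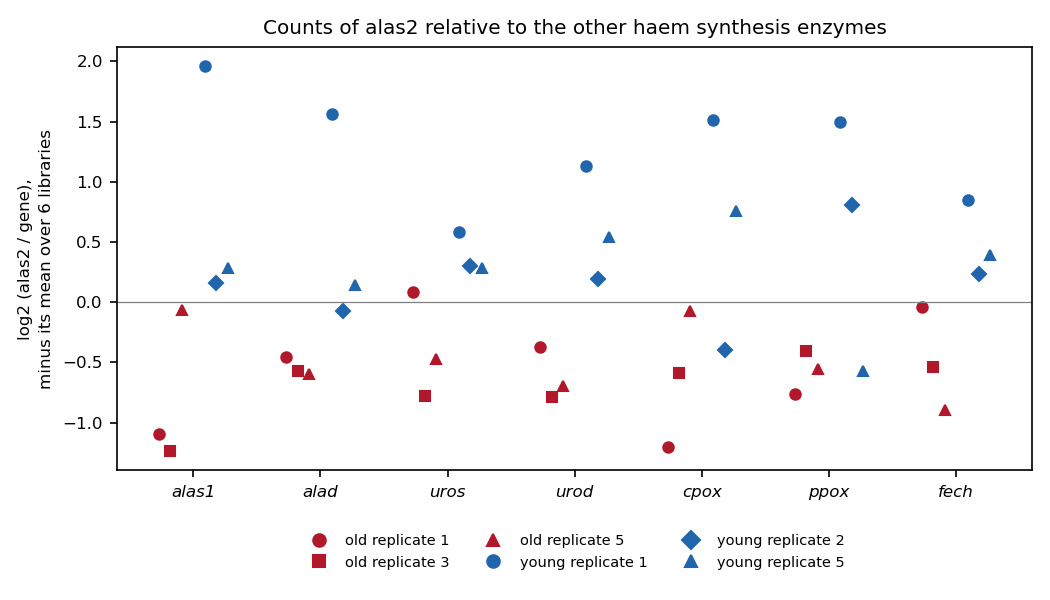
Log2 ratio of *alas2* counts to those of each other haem synthesis enzyme in the same library (vertical axis), shown as the deviation from the mean of the 6 libraries, with old libraries in red left of young libraries in blue. Old points lie below young points for *alas1*, *alad*, *uros*, *urod* and *fech*, and overlap with them for *cpox* and *ppox*.

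Around haem synthesis, 4 of 7 listed genes of mitochondrial transport and cofactors were tested. All 4 were fitted lower in old ventricles, against 12106 of 24835 genes tested, and 0 were called by edgeR or by DESeq2. An unadjusted p under 0.05 was found for 2, both lower, against 6.5% of all genes tested as lower. Among them was *abcb10*, a mitochondrial transporter that stabilises the iron importer of red cells in mammals, with 69.4 ± 8.0 CPM in old and 106 ± 30.8 CPM in young ventricles (SD, n = 3 each, log2 fold change -0.60, adjusted p = 0.238, edgeR). Its old values all lay below its young values, but not with library size alone as the scaling. In haem breakdown and export, 5 of 9 listed genes were tested. An unadjusted p under 0.05 was found for 1 as lower and 1 as higher, against 6.5% and 8.64% of all genes tested. EdgeR called 0, and DESeq2 called 1, *hmox1a*, where it called 748 of 24835 genes tested as higher. *hmox1a*, the inducible haem oxygenase that opens the haem ring, was measured at 14.5, 13.0 and 7.77 CPM in old replicates 1, 3 and 5 and at 3.65, 1.88 and 4.95 CPM in young replicates 1, 2 and 5. All old values of *hmox1a* exceeded all young values, with a log2 fold change of 1.75 ± 0.38 (SE, adjusted p = 0.0741, edgeR), and the threshold was passed in 3 of 16 alternative settings. *blvrb*, a biliverdin reductase, was fitted lower (log2 fold change -1.05, adjusted p = 0.154, edgeR).

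Haemoglobin transcripts are the main product that these regulators serve, and they were used as a measure within each library. Of 14 listed haemoglobin chains, 9 matched a single identifier and 8 were tested. EdgeR called 1 as lower, *hbaa1*, an adult alpha chain, against 0.338% of all genes tested. DESeq2 called 3 as lower, the adult chains *hbaa1*, *hbaa2* and *hbba2*, against 1.98% of all genes tested. *hbaa1* had 217, 273 and 216 CPM in old replicates 1, 3 and 5 against 1462, 536 and 810 CPM in young replicates 1, 2 and 5 (log2 fold change -1.99, adjusted p = 0.0307, edgeR), a call that was kept in 11 of 16 alternative settings. It was lost without young replicate 5 (adjusted p = 0.0597), with filterByExpr (0.0678), with at least 10 reads summed over libraries (0.0714), with limma-voom (0.0672) and with bias-adjusted deviances (0.0564). The fold changes of *hbaa2* and *hbba2* were -1.88 (adjusted p = 0.108, edgeR) and -1.85 (adjusted p = 0.103) on the log2 scale. The embryonic chains that were tested were at or near the floor, whereas *hbbe1.1*, *hbbe1.2*, *hbbe1.3* and *hbbe2* matched no single identifier. The identifier of *hbba2* is one of those named HBE1 below, so that name does not mark a chain as embryonic. Another identifier of that name, ENSDARG00000089087, had 16837 to 22257 counts in an old library, more than the 4785 to 5223 of *hbaa1*. Its old and young values overlapped (log2 fold change -0.42, adjusted p = 0.688, edgeR). Reads shared between near-identical chains had been discarded when counting, so these levels are uncertain.

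Summed over the 9 matched identifiers, haemoglobins reached 331, 352 and 305 CPM in old replicates 1, 3 and 5 and 2077, 665 and 1091 CPM in young replicates 1, 2 and 5. Summed over all 15 identifiers with a haemoglobin name, which adds those named HBE1, they reached 1421, 2008 and 1408 CPM in old replicates 1, 3 and 5 and 5985, 1860 and 2064 CPM in young replicates 1, 2 and 5. The first sum separated the groups and the second did not, since old replicate 3 lay above young replicate 2. The log2 ratio of the old to the young mean was -1.96 for the first sum and -1.03 for the second. In old replicates 1, 3 and 5 the first sum held 7301 of 31363, 6575 of 37500 and 7383 of 34068 counts of the second. In young replicates 1, 2 and 5 it held 41485 of 119537, 13754 of 38496 and 21369 of 40410, a larger part in each.

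Relative to the 9 matched haemoglobins, *gata1a* had a log2 ratio of -7.17 ± 0.21 in old and -7.08 ± 0.44 in young ventricles (SD, n = 3 each), a difference of -0.09 that was smaller than either SD (exact permutation p = 0.90). The differences were 0.41 for *klf1*, 0.68 for *tal1*, 0.22 for *epor*, 0.57 for *alas2* and 0.48 for *epb41b*, all with overlapping groups, and 0.73 for *cahz*, 1.55 for *fech* and 1.81 for *urod*, without overlap (exact permutation p = 0.10 for these 3, adjusted p = 0.30 over the 9 compared). Relative to all 15 identifiers, the difference was -1.05 for *gata1a* and -0.75 for *epor*, both lower in old ventricles without overlap (exact permutation p = 0.10, adjusted p = 0.386 over the 9 compared). With that sum the differences were also negative for *klf1* (-0.55), *tal1* (-0.29), *alas2* (-0.39), *cahz* (-0.23) and *epb41b* (-0.48), and positive for *urod* (0.84) and *fech* (0.59), with overlapping groups. Whether these genes were lower or higher relative to haemoglobin therefore turned with the chains counted, for 6 of the 9 genes.

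Markers of other cells that a ventricle sample can hold were read beside these values. Thrombocytes, the nucleated platelets of fish, share Gata1 with red cells in their programme, and 4 of 5 listed thrombocyte markers were tested, of which 3 were fitted lower and 1 higher in old ventricles. Their summed level was 20.7 to 29.9 CPM in old and 30.4 to 46.3 CPM in young libraries. *gp9*, a subunit of the platelet adhesion receptor, had 1.36, 2.14 and 2.97 CPM in old replicates 1, 3 and 5 against 12.3, 9.18 and 9.75 CPM in young replicates 1, 2 and 5. It was down-regulated (log2 fold change -2.26, adjusted p = 0.0201, edgeR), a call that was kept in 13 of 16 alternative settings. The call was lost without young replicate 1 (adjusted p = 0.0927), without young replicate 2 (adjusted p = 0.106) and with the replicate block (adjusted p = 0.101). The other markers, with overlapping groups, had log2 fold changes of -0.89 for *mpl*, -0.68 for *gp1bb* and 0.03 for *itga2b*. The part of thrombocytes in the values of *gata1a* was not tested.

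The 10 myeloid markers were all fitted higher in old ventricles, 9 of them at an unadjusted p under 0.05, where 8.64% of all genes tested were higher by that rule. Only 3 of the 10 (*mpeg1.1*, *lcp1* and *coro1a*) were higher without overlap of the groups, against 2580 of 24835 genes tested. *lyz* had 0.816, 0.910 and 29.5 CPM in old replicates 1, 3 and 5, and *mpx* had 0.725, 1.18 and 9.38 CPM. EdgeR called 1 of the 10, *lcp1*, against 0.519% of all genes tested as higher. DESeq2 called 5 (*spi1b*, *spi1a*, *mpeg1.1*, *lcp1* and *coro1a*), where it called 748 of 24835 genes tested as higher. *lcp1*, an actin-bundling protein of leukocytes, had a log2 fold change of 1.78 (19.1 ± 7.32 CPM in old and 5.53 ± 1.32 CPM in young ventricles, SD, n = 3 each, adjusted p = 0.0483, edgeR). The call of *lcp1* was kept in 7 of 16 alternative settings. It was lost without old replicate 5 (adjusted p = 0.0677) or without young replicate 1 (0.126), 2 (0.214) or 5 (0.134). It was also lost with filterByExpr, with at least 10 reads summed over libraries, with no filter, with limma-voom and with bias-adjusted deviances. The summed level of the 10 markers was 57.6 to 341 CPM in old and 27.7 to 72.0 CPM in young libraries. Of the 5 tested endothelial markers, 0 were called by edgeR or DESeq2 and 0 had an unadjusted p under 0.05, with the smallest p-values for *kdrl* (log2 fold change -0.56, adjusted p = 0.372, edgeR) and *tie1* (-0.24, adjusted p = 0.539), and sums of 649.5 to 770.0 CPM in old and 707 to 1127 CPM in young libraries. Of the 4 tested cardiomyocyte markers, 0 were called by edgeR or DESeq2. An unadjusted p under 0.05 was found for 2, both lower, against 6.5% of all genes tested as lower. These were *ryr2b* (log2 fold change -0.58, adjusted p = 0.146, edgeR) and *cmlc1* (-0.34, adjusted p = 0.271). The sums of the cardiomyocyte markers were 39109 to 48235 CPM in old and 39085 to 56230 CPM in young libraries. The part of these cells in the erythroid values was not tested.

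Across the 6 libraries, the centred log2 CPM of the 9 genes were averaged into one pattern, and 6544 other genes with a symbol and at least 10 CPM on average were ranked by their Pearson's r with it. The 5 most alike were GOLGA4 (r = 0.992), HUWE1 (0.990), KAT6A (0.989), *lmo2* (0.984) and *kmt2ba* (0.982), where capitals are the spelling of the name table. All 5 were highest in young replicate 1, and their log2 fold changes, from -0.83 for *lmo2* to -0.29 for KAT6A, did not pass the threshold (adjusted p of 0.192 to 0.496, edgeR). With 6 points that share library, depth and age group, these values of r are a description.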

How the data were processed

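The authors extracted RNA with Trizol, chose 3 of the checked samples per age by RNA integrity, prepared stranded poly(A)-selected libraries, sequenced single-end reads, demultiplexed them with bcl2fastq 2.20.0.422, aligned them to GRCz11 with STAR 2.5.4b and counted them per Ensembl gene with featureCounts 1.6.3, discarding multi-mapping and multi-overlapping reads. The values deposited are these raw counts, not normalized. Genes counted at least 1 time in the 6 libraries were scaled by TMM and tested with edgeR 4.0.16 (quasi-likelihood test with its default settings, R 4.3.3) with age as the only factor, with Benjamini-Hochberg adjustment over all genes tested and a threshold of 0.05. The test was checked on simulated data, with counts drawn independently for each gene and library. Shifts of a library shared by many genes were not simulated. DESeq2 1.42.0, limma 3.58.1 (voom), other scalings and filters, a replicate block and each library left out were alternatives. Python 3.11.15 (pandas 2.3.3, scipy 1.17.1, matplotlib 3.10.9) gave the tables and figures.

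Of 128 symbols, 94 matched a single Ensembl identifier, through a name table covering 29201 of 32520 genes or through a gene list of the study. No coordinates are given, because the annotation at hand was of another build. Within-library ratios used a pseudocount of 0.5 and a two-sided exact permutation test. The genes and lists were chosen with earlier results of these data known. Named were the 9 genes, the listed genes past the threshold or else the 2 with the smallest p of a list, and the 5 most alike. *zfpm1*, *nfe2*, *gfi1b*, the *tcf* genes, *epoa*, *itga2b*, *mpl*, *gp1bb*, *spi1a*, *spi1b*, *mpeg1.1*, *coro1a*, *hbaa2*, *hbba2*, *rhd*, the other haem enzymes and the ratios of *alas2* were chosen with their values in view. So were *klf3*, *klf17*, *myb*, *runx1*, *bpgm*, *lyz* and *mpx*, and *sptb*, *tmod4*, *rhag*, *kel*, *xk*, *cdk1*, *pcna*, *ccnb1* and *mcm5*. Results for some listed genes are not reported here. Same-numbered libraries of both ages deviated from their group means without relation (Pearson's r of -0.03 and 0.03 across genes), so they were taken as unpaired. No pair of libraries was alike within sampling noise.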

Additional observations from a re-analysis of the deposited data

How the results depend on the processing

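The count of genes called was 213 (84 lower, 129 higher) and that of erythroid and haem genes 1. The counts became 111 and 0 with filterByExpr, 65 and 0 with at least 10 reads summed over libraries, 120 and 0 with no filter, 94 and 0 with limma-voom, 111 and 0 with bias-adjusted deviances, and 1239 and 5 with DESeq2's Wald test. Scaling by library size alone gave 225 and 0, moved the median of all genes by 0.18 on the log2 scale and the share of higher calls to 80.4%, against 60.6%. DESeq2's size factors gave 208 and 1. With one library left out, 19 to 412 genes and 0 to 1 of the 9 were called. The replicate numbers 1 and 5 occur at both ages without pairing the fish, and with the replicate block 126 genes and 0 of the 9 were called. The block draws the age difference from replicates 1 and 5 alone, because replicate 3 was only old and replicate 2 only young. *gata1a*, *klf1*, *tal1*, *epor*, *alas2*, *cahz* and *epb41b* were lower in old ventricles under every alternative run. *urod* changed sign with the block (-0.017) and lay between -0.17 and 0.20 with one library left out, *fech* between -0.63 and 0.094. Relative to the matched haemoglobins, *gata1a* lay between -0.24 and 0.17 and *epor* between -0.015 and 0.38 with one library left out. Relative to all haemoglobin-named identifiers, a sum chosen after seeing the data, *klf1* (-0.55), *tal1* (-0.29), *epor* (-0.75), *alas2* (-0.39), *cahz* (-0.23) and *epb41b* (-0.48) were reversed. The causes were not tested. Depth limits *fech* and *epor* most, and *fech* was not tested under filterByExpr.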

Other observations

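Of 6 genes of dividing cells, 5 were fitted higher in old ventricles, 3 of them at an unadjusted p under 0.05. By that rule, 8.64% of all genes tested were higher. These 3 were *mki67*, *top2a* and *cdk1* (log2 fold change 2.54, adjusted p = 0.0842, edgeR). Groups overlapped for *pcna* (log2 fold change 0.34) and *ccnb1* (1.31), fitted higher, and for *mcm5* (-0.13), fitted lower. EdgeR called 2 of the 6, against 0.519% of all genes tested as higher. *mki67*, a protein of dividing cells, had 3.53, 3.80 and 3.68 CPM in old replicates 1, 3 and 5 and 1.2, 0.918 and 0.868 CPM in young replicates 1, 2 and 5 (log2 fold change 1.88, adjusted p = 0.0418, edgeR). *top2a*, the topoisomerase that separates chromosomes, had 3.90, 4.44 and 2.31 CPM in old replicates 1, 3 and 5 and 0.250, 0.531 and 0.409 CPM in young replicates 1, 2 and 5 (log2 fold change 3.14, adjusted p = 0.0205, edgeR). Both were past the threshold in edgeR, and the call was kept in 7 of 16 alternative settings for *mki67* and in 11 for *top2a*. Both calls were lost without young replicate 1 (adjusted p of 0.104 for *mki67* and 0.0902 for *top2a*), 2 (0.181 and 0.106) or 5 (0.111 and 0.0655). Both were also lost with limma-voom and with the replicate block. That of *mki67* was also lost without old replicate 3 (0.0691) or 5 (0.0614), with at least 10 reads summed over libraries and with no filter.

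Among the identifiers that the name table calls HBE1, ENSDARG00000089087 had 763, 1192 and 750.2 CPM in old replicates 1, 3 and 5 and 2434, 722 and 465 CPM in young replicates 1, 2 and 5, with overlapping groups (log2 fold change -0.42, adjusted p = 0.688, edgeR). ENSDARG00000097238 had 327, 464 and 352 CPM in old replicates and 1474, 473 and 507 CPM in young replicates (log2 fold change -1.10, adjusted p = 0.228, edgeR).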
